A study of Mus musculus with 12 samples.

Results

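Antibody genes were followed in scrapings of the small intestine of old and young mice. Probe sets that listed exactly 1 gene symbol were taken where the symbol began with Ighv, Igkv, Iglv or Ighg, or was Igha, Ighm, Ighd, Ighe, Igkc, Jchain or Pigr. This gave 17 probe sets for 13 genes, the brightest probe set stood for its gene, and 12 genes passed an intensity limit of 50 on at least 1 array, of 11920 genes kept in all. The members were the heavy chain constant genes Igha, Ighm and Ighg3, the joining chain gene Jchain, the antibody receptor gene Pigr and 7 variable genes of the kappa light chain, Igkv4-55, Igkv4-91, Igkv6-20, Igkv8-30, Igkv9-120, Igkv10-96 and Igkv19-93. An eighth kappa gene, Igkv5-43, was left out by the limit, with log2 intensities between 3.33 and 5.31, whereas Igkv8-30 just passed it with a highest value of 5.79. No variable gene of the heavy or lambda chain, and neither Ighd, Ighe nor Igkc, had a probe set with a single symbol.

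The 12 arrays covered 4 groups of male C57BL/6J mice, namely old mice (21 months) on a high-fat diet, old mice on a low-fat diet, young mice (4 months) on a high-fat diet and young mice on a low-fat diet, each in the proximal, middle and distal segment. The diets were palm oil based, held 45% (high-fat) or 10% (low-fat) of energy as fat and were given for 2 weeks, and all mice had eaten chow and then the low-fat diet beforehand. RNA of 8 old or 6 young mice was pooled for each array, and a group's 3 segments were taken from the same animals, so that age and diet rest on 4 pools with 1 pool per combination. What belongs to age or diet and what belongs to the particular mice of a pool cannot be told apart. Values are log2 intensities, and a difference of 1 is 2-fold.

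An antibody consists of heavy and light chains, each with a variable part that binds antigen and a constant part. The variable part is assembled in each developing B cell from separate gene segments, so that a given V gene is expressed mainly by those cells and their progeny that joined it. The heavy chain constant gene sets the class, with Ighm for IgM, Ighg3 for IgG3 and Igha for IgA, the main antibody of the gut. Plasma cells below the epithelium release IgA that the product of Jchain holds together in polymers, and the polymeric immunoglobulin receptor encoded by Pigr carries it through the epithelial cells into the lumen. In scrapings, fewer cells of a type and less RNA per cell cannot be told apart.

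Jchain and Pigr encode the partners of secreted IgA, and both were lower in the distal than in the proximal segment. Their upstream sequence is shown for that reason, as the 250 bases before the start of the gene in RefSeq (GRCm38.p6), 5′ to 3′ on the strand of the gene. They were the only 2 of the 12 members with an entry in the promoter table. The Jchain stretch is chr5:88527898-88528147 on the minus strand and the Pigr stretch is chr1:130826434-130826683 on the plus strand.
Jchain: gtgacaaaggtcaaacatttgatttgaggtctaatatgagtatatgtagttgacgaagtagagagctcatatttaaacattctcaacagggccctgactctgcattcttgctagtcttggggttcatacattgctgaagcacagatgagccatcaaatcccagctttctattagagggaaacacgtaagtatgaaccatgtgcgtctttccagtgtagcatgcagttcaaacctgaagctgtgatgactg
Pigr: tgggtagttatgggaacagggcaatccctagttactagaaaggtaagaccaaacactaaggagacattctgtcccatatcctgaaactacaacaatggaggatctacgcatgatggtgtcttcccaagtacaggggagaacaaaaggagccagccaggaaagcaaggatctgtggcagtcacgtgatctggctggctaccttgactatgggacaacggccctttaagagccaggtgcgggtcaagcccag
The octamer ATGCAAAT, which immunoglobulin promoters are known for, was searched on both strands and the TATA box TATAAA on the strand of the gene. Neither was found in these stretches, which therefore hold no capitals. Of 32851 stretches of this kind in the table, 1.6% held the octamer and 7.59% the TATA box. The G and C content was 42% for Jchain and 50.4% for Pigr.

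The labelled tissue was checked on 14 epithelial genes, all of which passed the intensity limit, with a mean log2 intensity between 11.55 and 11.86 on the 12 arrays. The array medians over all probe sets lay between 5.57 and 5.7. The distal array of the old high-fat pool stood apart for immune and stromal genes. Its mean over 18 B cell genes was 6.21, against 6.77 in the distal old low-fat, 6.83 in the distal young high-fat and 6.74 in the distal young low-fat array. For 14 myeloid genes the mean was 6.51 there and between 6.88 and 6.94 on the other distal arrays, and for 22 plasma cell genes 7.53 there and between 7.74 and 7.8. The fits of segment and pool and the distal age difference are therefore also given without it, whereas the pool means are given without whole segments only.

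The constant gene of IgA was lower distally in all 4 pools. Proximal Igha was 9.24 in the old high-fat, 9.31 in the old low-fat, 9.93 in the young high-fat and 8.94 in the young low-fat pool. Middle values were 9.43 in the old high-fat, 8.97 in the old low-fat, 9.41 in the young high-fat and 8.47 in the young low-fat pool. Distal values were 7.36 in the old high-fat, 8.71 in the old low-fat, 8.17 in the young high-fat and 8.38 in the young low-fat pool. The 4 distal values all lay below the 4 proximal ones, and the old high-fat value was the lowest of the 12. A second Igha probe set followed the first (Pearson r = 0.98 over the 12 arrays, which share mice between segments).

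Jchain, the polypeptide that links IgA or IgM units, ran from 11.51 to 11.85 in the proximal segment, with 11.53 in the old high-fat, 11.51 in the old low-fat, 11.53 in the young high-fat and 11.85 in the young low-fat pool. In the middle segment it measured 11.43 in the old high-fat, 10.93 in the old low-fat, 11.26 in the young high-fat and 11.13 in the young low-fat pool. Distally it reached 10.12 in the old high-fat and 10.49 in the old low-fat pool, against 10.98 in the young high-fat and 11.14 in the young low-fat pool. Both old pools were thus below both young pools in the distal segment, while old and young overlapped elsewhere.

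Ighm, which encodes the heavy chain of IgM, lay between 7.34 and 7.9 proximally, 7.18 and 8.17 in the middle and 6.91 and 7.5 distally. There the old pools measured 6.91 on high-fat and 6.94 on low-fat diet, and the young pools 7.5 on high-fat and 7.4 on low-fat diet. Pigr varied least, with 12.7 to 12.88 proximally, 12.37 to 12.69 in the middle and 12.39 to 12.56 distally. Ighg3 was uneven. It measured 5.25 in the old high-fat, 5.63 in the old low-fat, 4.12 in the young high-fat and 6.88 in the young low-fat pool proximally. The middle values were 6.55 in the old high-fat, 3.99 in the old low-fat, 5.11 in the young high-fat and 6.07 in the young low-fat pool, and the distal values lay between 4.12 and 5.53. Ighg3 passed the intensity limit on 3 arrays, the proximal and middle young low-fat and the middle old high-fat array, so that most of its values were dim.

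**Figure D1:**
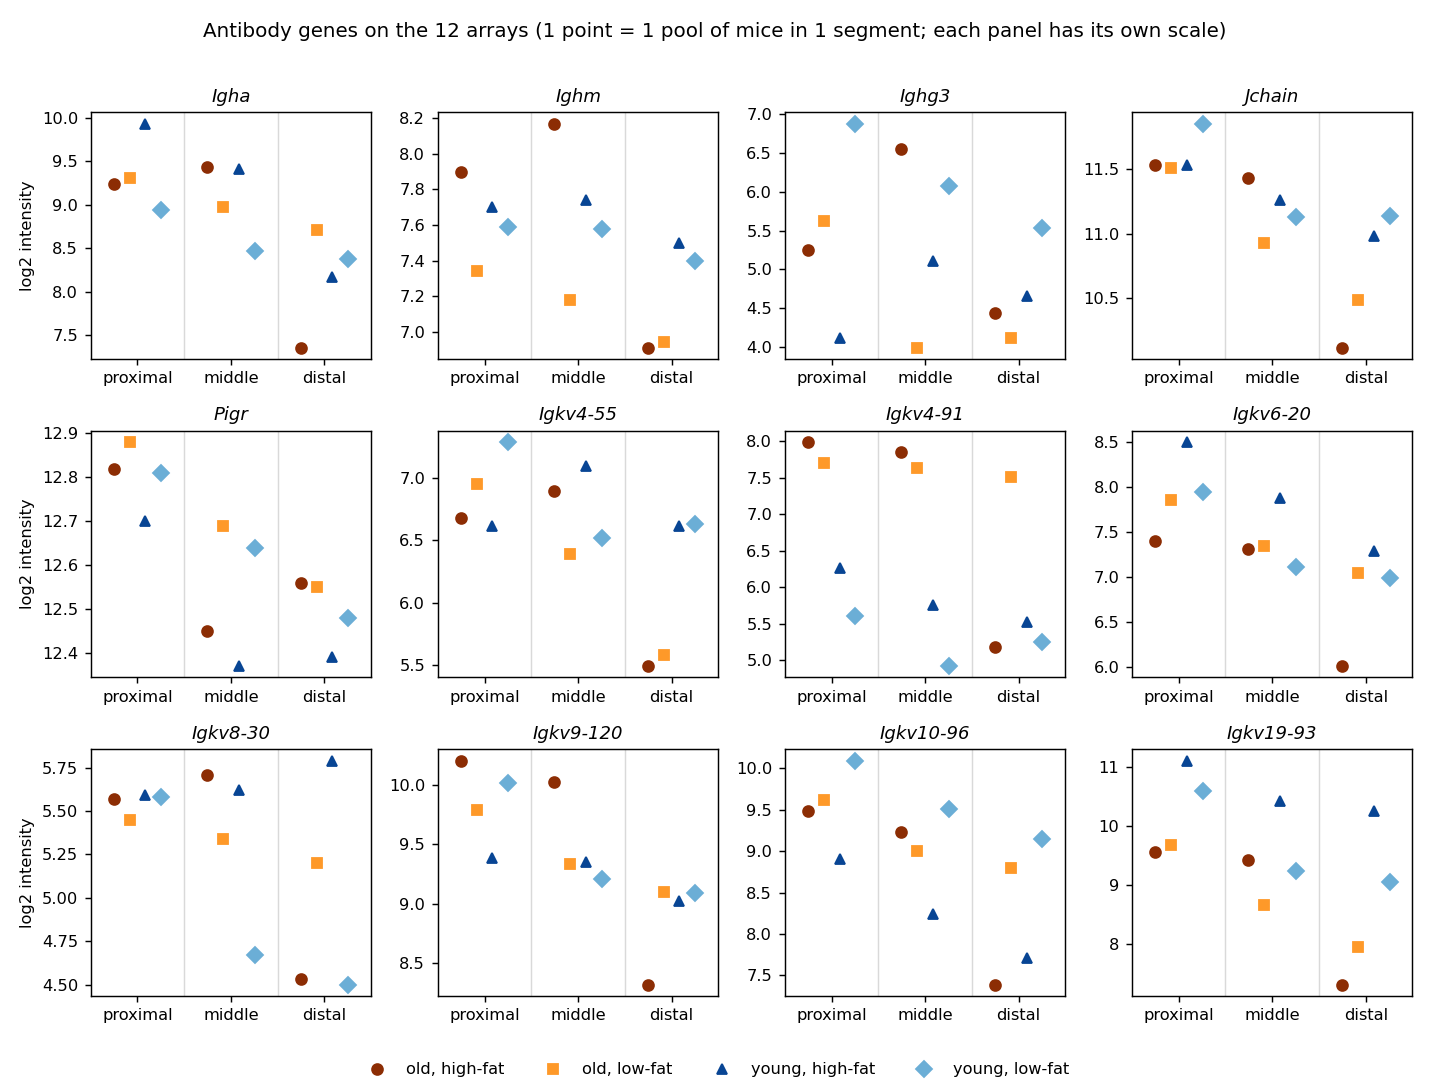
Log2 intensity (y axis) of the 12 antibody genes in the proximal, middle and distal segment (x axis), 1 point per array, for old high-fat, old low-fat, young high-fat and young low-fat pools from left to right. Igkv4-91 was above 7.5 in both old pools proximally and in the middle and at most 6.26 in the young pools, and the distal old high-fat point is low in most panels.

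Several kappa V genes differed between pools, each in its own way. Igkv4-91 measured 7.99 in the old high-fat and 7.71 in the old low-fat pool, against 6.26 in the young high-fat and 5.6 in the young low-fat pool, in the proximal segment. In the middle segment it was 7.86 in the old high-fat and 7.63 in the old low-fat pool, against 5.76 in the young high-fat and 4.92 in the young low-fat pool. Distally the old low-fat pool stayed high at 7.51, whereas the old high-fat pool measured 5.18, the young high-fat pool 5.52 and the young low-fat pool 5.25. Old and young pools did not overlap in the proximal and middle segments, and the distal old high-fat array fell among the young ones.

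Igkv19-93 ran the other way. It measured 9.57 in the old high-fat and 9.69 in the old low-fat pool, against 11.11 in the young high-fat and 10.59 in the young low-fat pool, proximally. Middle values were 9.43 in the old high-fat, 8.67 in the old low-fat, 10.42 in the young high-fat and 9.25 in the young low-fat pool. Distal values were 7.32 in the old high-fat and 7.95 in the old low-fat pool, against 10.26 in the young high-fat and 9.05 in the young low-fat pool. The young high-fat pool was highest in each segment, and only in the middle segment did an old value exceed a young one. Along the kappa locus in the RefSeq table, Igkv19-93 lies between Igkv10-96 and Igkv4-91 among the genes followed here, so that neighbours differed in the direction of the age difference.

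Igkv10-96 was highest in the young low-fat pool, but did not pass the F test between pools given below (adjusted p = 0.0725). Proximally it was 9.48 in the old high-fat, 9.61 in the old low-fat, 8.9 in the young high-fat and 10.09 in the young low-fat pool. In the middle it was 9.23 in the old high-fat, 9 in the old low-fat, 8.24 in the young high-fat and 9.51 in the young low-fat pool, and distally 7.39 in the old high-fat, 8.79 in the old low-fat, 7.71 in the young high-fat and 9.14 in the young low-fat pool. The young low-fat value was the highest of each segment, and within an age the gene was lower on high-fat than on low-fat diet in every segment but the middle one of old mice.

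Igkv6-20 was highest in the young high-fat pool in every segment, with 8.5 proximally, 7.88 in the middle and 7.29 distally. The other proximal values were 7.4 in the old high-fat, 7.86 in the old low-fat and 7.95 in the young low-fat pool, and the other middle values 7.31 in the old high-fat, 7.34 in the old low-fat and 7.11 in the young low-fat pool. Distally the old high-fat pool had 6.01, the old low-fat pool 7.05 and the young low-fat pool 6.99. Igkv4-55 overlapped between ages except distally, where it measured 5.49 in the old high-fat and 5.58 in the old low-fat pool, against 6.62 in the young high-fat and 6.63 in the young low-fat pool. Its proximal values ran from 6.62 to 7.29 and its middle values from 6.39 to 7.1. Igkv9-120 lay between 8.32 and 10.2 over the 12 arrays and Igkv8-30 between 4.5 and 5.79, both with the pools interleaved.

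To ask whether antibody genes differed along the intestine, segment and pool were fitted together to all genes with limma, whose error is here the spread of segments within pools. In the distal segment 9 of the 12 members were lower than in the proximal segment at an adjusted p under 0.05, and none was higher. Over all genes, 54.8% passed in either direction and 27.5% were lower. The falls were largest for Igkv19-93 (-1.59, SE 0.27, adjusted p = 0.000576), Igkv10-96 (-1.26, SE 0.22, adjusted p = 0.000667) and Igha (-1.20, SE 0.27, adjusted p = 0.00377). Igkv6-20 fell by 1.09 (SE 0.15, adjusted p = 0.000157), Igkv9-120 by 0.96 (SE 0.24), Jchain by 0.92 (SE 0.17, adjusted p = 0.00106), Igkv4-55 by 0.80 (SE 0.24), Ighm by 0.44 (SE 0.15) and Pigr by 0.30 (SE 0.06, adjusted p = 0.00118). The members that did not pass were Igkv4-91 (-1.03, adjusted p = 0.0565), Igkv8-30 (-0.55, adjusted p = 0.0598) and Ighg3 (-0.78, adjusted p = 0.153). Median differences were -0.94 for the members and 0.02 for all genes.

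Within pools, the distal value was below the proximal one in 12 of 12 members in the old high-fat, 12 in the old low-fat, 10 in the young high-fat and 12 in the young low-fat pool, where 47.2% to 51.8% of all genes were lower. The exceptions were Ighg3 (0.54) and Igkv8-30 (0.20) in the young high-fat pool. The median fall was largest in the old high-fat pool (-1.40) and lay between -0.81 and -0.46 in the other pools. Without the distal old high-fat array, 9 members passed again (55.3% of all genes), with Igkv4-91 (-0.39, adjusted p = 0.0266) in place of Igkv4-55 (-0.61, adjusted p = 0.0611), and the difference for Ighm was -0.22. The call of Igkv4-55 was also lost without the proximal old low-fat, the proximal young low-fat or the distal old low-fat array (highest adjusted p = 0.0656). That of Ighm was lost without the proximal old high-fat, the proximal old low-fat or the proximal young low-fat array (highest adjusted p = 0.0957).

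The steps between neighbouring segments were less certain. From proximal to middle, Igkv6-20 (-0.52, SE 0.15, adjusted p = 0.0315) and Pigr (-0.26, SE 0.06, adjusted p = 0.00791) were lower in the middle, against 25% of all genes that passed and 10.9% that were lower. From middle to distal, Igha, Ighm, Jchain, Igkv6-20, Igkv10-96 and Igkv19-93 were lower in the distal segment, by 0.48 (Ighm) to 0.91 (Igha), against 34.6% of all genes that passed and 20% that were lower. Other probe sets of Igha, Ighm and Igkv19-93 did not pass this step in the limma fit of all probe sets with a symbol. Their adjusted p was 0.0687 for Igha, 0.0564 and 0.121 for Ighm, and 0.246 for Igkv19-93. Pigr differed by only -0.04 (SE 0.06) between distal and middle. These counts turned on single arrays. The 6 calls between distal and middle became 1 without the middle old high-fat, 2 without the middle young high-fat and 3 without either the distal old high-fat or the distal old low-fat array. The 2 calls between middle and proximal became 7 without the distal old high-fat, 5 without the middle old high-fat and 3 without the distal young high-fat array, and 1 without any one of the proximal arrays or of the other 3 middle arrays.

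Most genes of B cells before the plasma cell stage were higher, not lower, in the distal segment. The mean over the 18 B cell genes rose little in the old high-fat pool, from 6.16 proximally to 6.21 distally. It rose from 6.16 to 6.77 in the old low-fat, from 6.23 to 6.83 in the young high-fat and from 6.27 to 6.74 in the young low-fat pool. Of 18 B cell genes tested, 13 were higher and 1 lower (27.3% and 27.5% of all genes), with a median of 0.42. Bank1, Blk, Cd22, Cr2, Fcrla and Spib passed the intensity limit on distal arrays only. Entry by that route favours higher distal values, so that the count is no test of these genes. Ms4a1, the B cell surface protein CD20, was 1.53 higher (SE 0.25, adjusted p = 0.000504) and Cr2, a complement receptor of B cells and follicular dendritic cells, 1.47 higher (SE 0.15, adjusted p = 1.64e-05). Their proximal values (4.97 to 5.23 and 4.31 to 4.63) lay under the limit (log2 5.644), so that both sizes are uncertain. Blnk, a linker of the B cell receptor, was 0.91 lower (-0.91, SE 0.08) and H2-Ob, a class II modulator, 0.75 higher (SE 0.16). Of 22 plasma cell genes 4 were higher and 6 lower (median -0.06). Whether the RNA of these genes came from plasma cells or from other cells, such as epithelium, was not tested. Sdc1, which epithelial cells also make, was 0.85 higher, and Ccr9 (-0.63, SE 0.16), the gut homing receptor, Herpud1 (-0.61, SE 0.05), of protein quality control, and Mzb1 (-0.48, SE 0.13), a chaperone of antibody secretion, were lower.

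**Figure D2:**
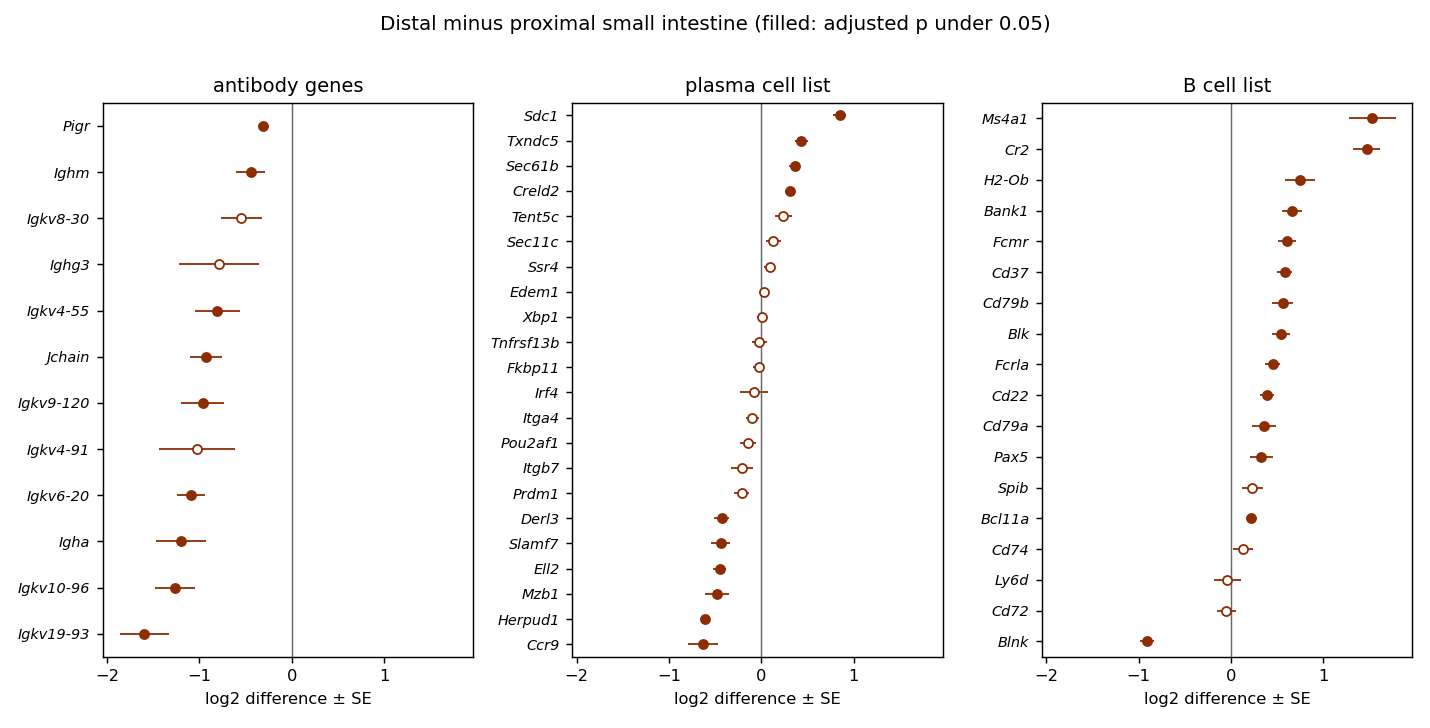
Log2 difference between the distal and the proximal segment (x axis, with SE from the fit of segment and pool) for the 12 antibody genes, 22 plasma cell genes and 18 B cell genes (y axis), filled where the adjusted p was under 0.05. All 12 antibody genes lie left of 0, whereas 15 of the 18 B cell genes lie right of it. Bank1, Blk, Cd22, Cr2, Fcrla and Spib passed the intensity limit on distal arrays only.

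Genes that induce, guide or bind antibodies were mixed along the intestine. Of 12 genes for IgA induction and homing 4 were higher and 5 lower distally, with Nos2, an inducible nitric oxide synthase, 4.29 higher (SE 0.34), Cxcl13, a B cell chemokine, 1.39 higher (SE 0.18), Ccl28, a chemokine for IgA cells, 1.01 higher (SE 0.06) and Tnfsf13b, the B cell survival factor BAFF, lower (-0.69, SE 0.08). The proximal values of Nos2 (4.44 to 5.6) all lay under the intensity limit, so that the size of its difference is uncertain. Of 7 genes for antibody receptors and transport 4 were lower and 1 higher. These were the Fc receptor genes Fcgr4 (-1.21, SE 0.12), Fcer1g (-0.92, SE 0.11), Fcgr3 (-0.71, SE 0.14) and Fcgr1 (-0.60, SE 0.12), and the mucin gene Muc2 (1.05, SE 0.12). Of 12 smooth muscle genes 11 were higher and none lower, with a median of 1.22. Of 14 myeloid genes 10 were lower and 2 higher, with a median of -0.65, and of 14 epithelial genes 11 were higher and 1 lower, with a median of 0.38. Of 11 T cell genes 5 were lower and 2 higher (median -0.19), and of 10 genes of fibroblasts and matrix 2 were lower and 2 higher (median 0.09). The part of these cell types in the antibody results was not tested. Of 10 germinal centre and class switch genes 4 were higher and 3 lower, and of 3 tested genes of recombination 2 were lower.

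How far the pools differed was asked next. The range over the 4 pool means had a median of 0.661 for the 12 members and 0.156 for all genes. Igkv4-91, Igkv19-93, Ighg3, Igkv10-96 and Igkv6-20 were within the top 1% of all genes, and Pigr ranked lowest, at percentile 71.4. The spread left after segment and pool was also wider, with a median SD of 0.413 for the members and 0.105 for all genes. In the F test between pools, 1 member passed, Igkv19-93 (adjusted p = 0.0351), against 2.09% of all genes, followed by Igkv6-20 (0.0642), Igkv4-91 (0.0679) and Igkv10-96 (0.0725). Its call was lost when any of 9 of the 12 arrays was left out (highest adjusted p = 0.0952) and it held without the middle old high-fat, the middle young low-fat or the distal old high-fat array.

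Without the distal old high-fat array, 4 members passed, against 3.4% of all genes. They were Igkv4-91 (adjusted p = 0.000422), Igkv10-96 (0.00609), Ighm (0.0153) and Igkv19-93 (0.0172). Without the middle old high-fat array 3 passed, Igkv6-20, Igkv10-96 and Igkv19-93. Counted without a test, 3 of 12 members had the same pool highest in all 3 segments (Igkv10-96, Igkv19-93 and Igkv6-20), against 13.1% of all genes.

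**Figure D3:**
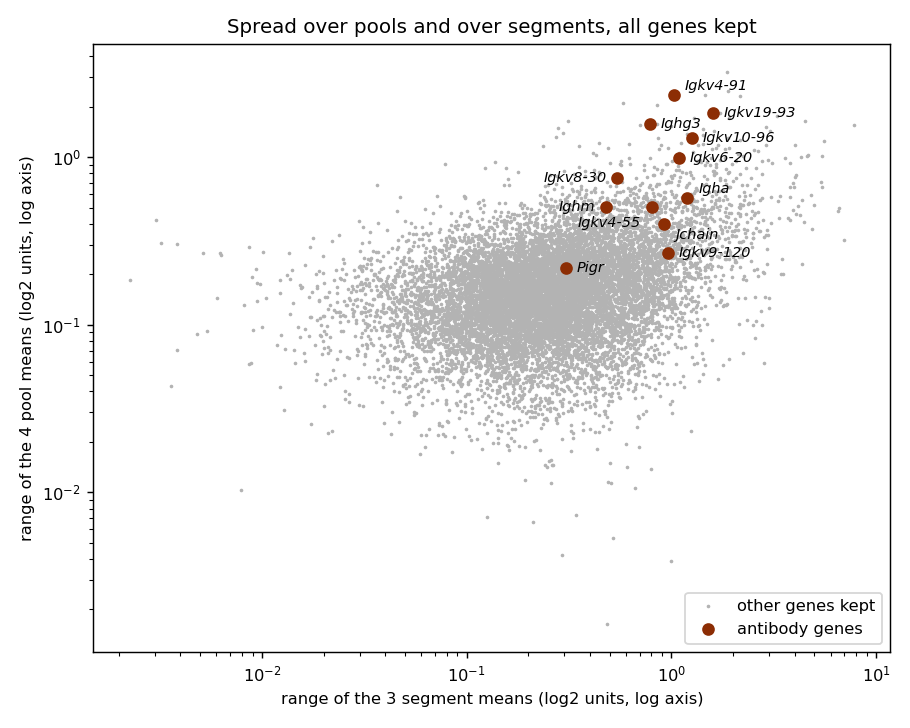
Range of the 4 pool means (y axis, log2 units on a log axis) against the range of the 3 segment means (x axis, log2 units on a log axis) for the 12 antibody genes and the other genes kept. Igkv4-91, Igkv19-93, Ighg3, Igkv10-96 and Igkv6-20 lie within the top 1% of pool ranges, and Pigr lies among most other genes.

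Old and young mice were compared first over the pool means of the 3 segments, where the 4 pools leave 1 residual degree of freedom. Igkv4-91 was higher in old mice (1.76, SE 0.24, adjusted p = 0.0162). Igkv19-93 (-1.34, SE 0.19, adjusted p = 0.0206), Igkv4-55 (-0.47, SE 0.05, adjusted p = 0.00865) and Jchain (-0.32, SE 0.06, adjusted p = 0.0417) were lower. These were 4 of 12 members, against 2.93% of all genes. Igha (-0.05, SE 0.18), Ighm (-0.18, SE 0.09) and Pigr (0.09, SE 0.05) did not pass. The calls of Igkv4-55 and Jchain rested on the distal segment, since without it the differences were -0.15 (adjusted p = 0.419) and -0.09 (adjusted p = 0.74), whereas Igkv4-91 then differed by 2.16 (adjusted p = 0.00113) and Igkv19-93 by -0.999 (adjusted p = 0.0293). Igkv4-91 did not pass without the middle segment (1.44, adjusted p = 0.0937). Neither Igkv4-91 nor Igkv19-93 passed without an intensity limit (adjusted p = 0.0565 and 0.0641) or with an intensity trend and robust variance (adjusted p = 0.444 and 0.461). Jchain did not pass without an intensity limit (adjusted p = 0.127), with quantile normalization (0.059) or with every probe set as a row (0.0673). It did pass with the trend and robust variance (adjusted p = 0.00161).

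Within segments, with the high-fat and the low-fat pair as repeats, no member passed in the proximal (0.109% of all genes) or middle segment (0.0252%). At an unadjusted p under 0.05 limma gave 2 members and 1033 genes proximally and 1 member and 1049 genes in the middle. Igkv4-91 differed by 1.92 (SE 0.50, adjusted p = 0.261) and 2.41 (SE 0.50, adjusted p = 0.276) in these segments. In the distal segment Igkv4-55 was lower in old mice (-1.09, SE 0.10, adjusted p = 0.0118), against 0.654% of all genes. Jchain differed by -0.76 (SE 0.12), just above the threshold, and Igkv19-93 by -2.02 (SE 0.37, adjusted p = 0.0804). Without the distal old high-fat array the distal difference of Igkv4-55 was -1.05 (adjusted p = 0.218), and the value was the same without the distal young high-fat array, since the low-fat pair alone then remained. Igkv19-93 differed by -1.09 in the low-fat pair. Without the distal old low-fat or the distal young low-fat array its difference was -2.94, since the high-fat pair alone then remained. That pair uses the old high-fat array that stood apart. Leaving out any one proximal array gave Jchain a call (adjusted p = 0.0462), the same result whichever was left out. Leaving out any one middle array did not (adjusted p = 0.101). With a distal array left out, where a single pair remained, its difference was -0.86 or -0.66, also without a call.

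Taken array against array at 2-fold, which allows no test, old exceeded or fell below young in 4 of 12 members proximally on high-fat diet (0.193% of all genes) and 2 on low-fat diet (0.218%). Proximally on high-fat diet these were Igkv4-91 (1.73) and Ighg3 (1.13), higher in old mice, and Igkv19-93 (-1.54) and Igkv6-20 (-1.10), lower. In the middle segment 2 members passed 2-fold on high-fat diet (0.193%), Igkv4-91 (2.10) and Ighg3 (1.43), and 2 on low-fat diet (0.109%), Igkv4-91 (2.71) and Ighg3 (-2.08). Proximally on low-fat diet they were also Igkv4-91 (2.10) and Ighg3 (-1.25), but the Ighg3 differences rest on dim signal. Its intensity was 38.1 in the old and 17.4 in the young pool of the proximal high-fat pair and 15.9 in the middle old low-fat pool, under the limit of 50, so that its signs and sizes are uncertain. Igkv4-91 was under this limit in 4 of the 6 young arrays (30.2 to 48.6) and in the distal old high-fat array (36.1), so that the size of its differences is uncertain too.

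Distally 4 members passed on high-fat diet (0.554%), all lower in old mice, namely Igkv19-93 (-2.94), Igkv6-20 (-1.27), Igkv8-30 (-1.26) and Igkv4-55 (-1.13). On low-fat diet there were also 4 (0.235%), with Igkv4-91 higher (2.26) and Ighg3 (-1.41), Igkv19-93 (-1.09) and Igkv4-55 (-1.05) lower. In the distal high-fat pair 11 of 12 members were below 0, as were 50.2% of all genes, and the member above it was Pigr (0.16). The B cell genes were below 0 in 18 of 18 and the myeloid genes in 12 of 14 in this pair, and their part in it was not tested. In the distal low-fat pair 6 of 12 members were below 0.

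**Figure D4:**
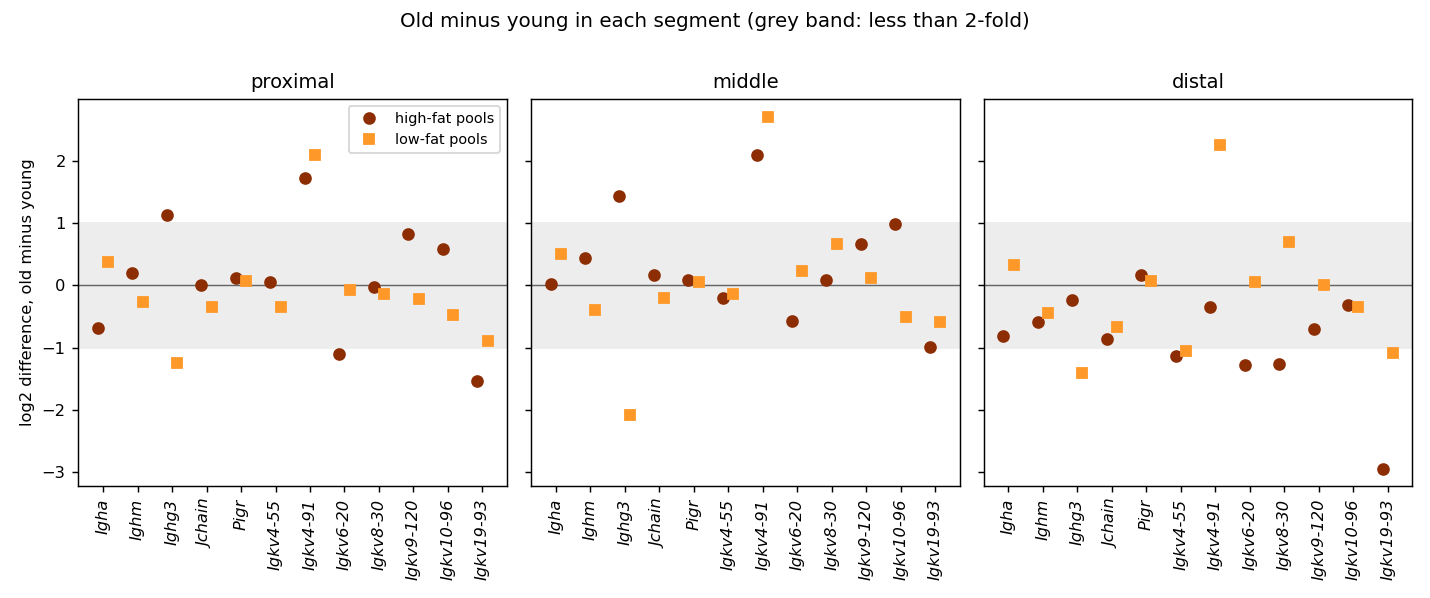
Log2 difference between old and young pools (y axis) for the 12 antibody genes (x axis) in the 3 segments, for the high-fat and the low-fat pair, 1 array against 1 array per point. Igkv4-91 lies above the 2-fold band in 5 of 6 pairs and Igkv19-93 below 0 in 6 of 6.

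More smooth muscle and matrix genes than B cell and plasma cell genes passed between ages. Over the pool means, where 2.93% of all genes passed, 9 of 12 smooth muscle genes (median -0.67) and 9 of 10 genes of fibroblasts and matrix (median -0.47) were lower in old mice, as were 5 of 14 myeloid genes (median -0.19). Of 18 B cell genes, Bank1 (-0.32, SE 0.05, adjusted p = 0.0233), a B cell scaffold protein, was lower, and the median was -0.23. Of 22 plasma cell genes, Creld2 (-0.38, SE 0.05, adjusted p = 0.0147), a protein of the endoplasmic reticulum, was lower, and the median was -0.06. With 1 gene each, the share of B cell and plasma cell genes that passed was near that of all genes. Among the genes for IgA induction and homing, Cxcl13 (-0.34, adjusted p = 0.0363) and Aldh1a2 (-0.30, adjusted p = 0.03), which makes retinoic acid, were lower. Whether these cell types had a part in the antibody results was not tested.

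The high-fat diet gave few calls among the 12 members. Over the pool means Igkv10-96 was lower on high-fat diet (-0.86, SE 0.17, adjusted p = 0.0388), 1 of 12 members against 5.7% of all genes, which is a share near the background. Without the distal segment it did not pass (-0.59, adjusted p = 0.249), and Igkv19-93 (0.58, adjusted p = 0.0433) and Igkv8-30 (0.36, adjusted p = 0.048) did. In the middle segment Igkv4-55 was higher on high-fat diet (0.54, SE 0.10, adjusted p = 0.0408), against 2.54% of all genes, and the call was lost when any one of 8 of the 12 arrays, all of them middle or distal, was left out. No member passed proximally (0.319% of all genes) or distally (0.529%), where limma gave 1 and 2 members and 1283 and 2090 genes at an unadjusted p under 0.05. In these segments Igkv4-55 differed by -0.47 (SE 0.10, adjusted p = 0.136) and -0.05 (SE 0.10).

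At 2-fold, the old pools gave no member proximally (0.277% of all genes), 1 in the middle (0.554%), the dim Ighg3 (2.56), and 4 distally (0.596%), Igkv4-91 (-2.33), Igkv10-96 (-1.40), Igha (-1.34) and Igkv6-20 (-1.03), all lower on high-fat diet. Young pools gave 2 proximally (0.403%), Ighg3 (-2.76) and Igkv10-96 (-1.19), 2 in the middle (0.461%), Igkv10-96 (-1.27) and Igkv19-93 (1.17), and 3 distally (0.185%), Igkv10-96 (-1.42), Igkv8-30 (1.29) and Igkv19-93 (1.22). Igkv10-96 was thus lower on high-fat diet in the 3 segments of young mice. In old mice 2 of 12 members were below 0 in the middle and 10 of 12 distally, where 50.8% and 52.4% of all genes were, and the distal count rests on the old high-fat array that stood apart.

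**Figure D5:**
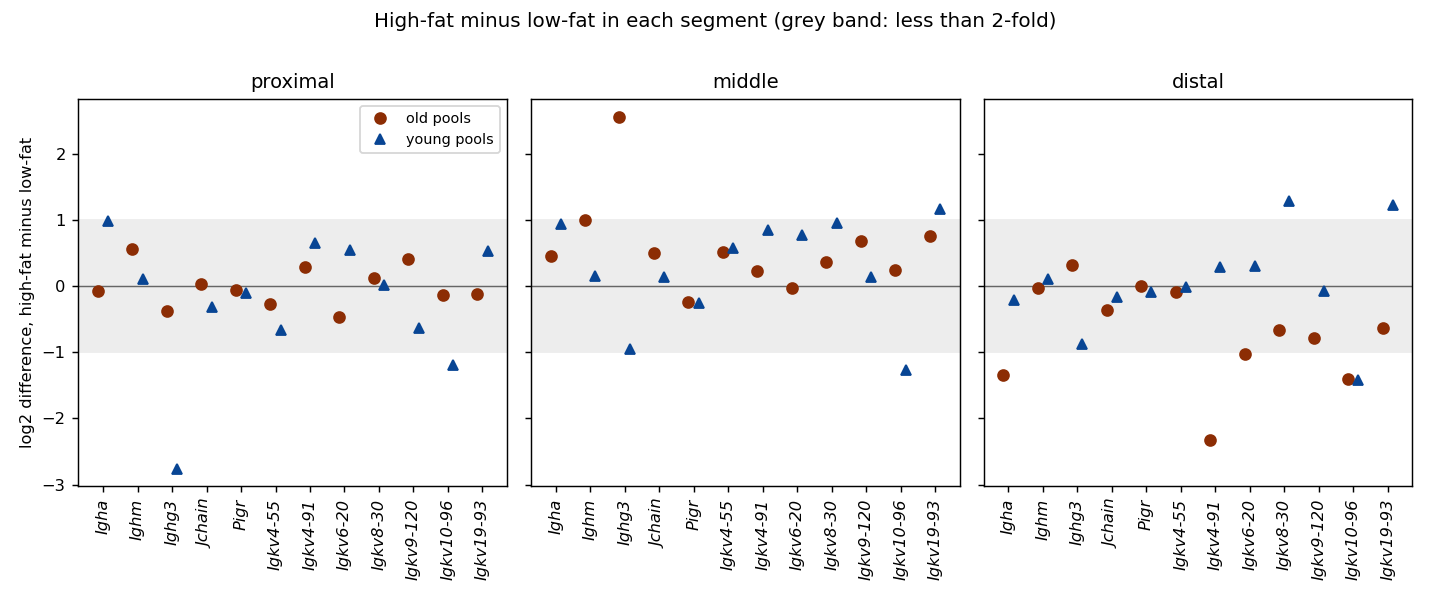
Log2 difference between high-fat and low-fat pools (y axis) for the 12 antibody genes (x axis) in the 3 segments, for old and for young mice, 1 array against 1 array per point. Igkv10-96 lies below the 2-fold band in the 3 segments of young mice, and Igkv4-91 lies at -2.33 in the distal segment of old mice.

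The age difference was also set against diet over the segments. No member and 0% of all genes passed this interaction, and at an unadjusted p under 0.05 limma gave 4 members and 317 genes. The 4 were Ighg3 (2.36, SE 0.71), Igkv6-20 (-1.05, SE 0.25), Igkv10-96 (0.86, SE 0.36) and Igkv8-30 (-0.81, SE 0.36), all with an adjusted p of 0.999.

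The distal array of the old high-fat pool was the lowest of the 4 distal arrays for 9 of 12 members and the lowest of all 12 arrays for 8, against 36.6% and 17.8% of all genes. Over the 12 members the difference between this array and the distal old low-fat array ran from -2.33 (Igkv4-91) to 0.31 (Ighg3). Ms4a1 measured 5.51 there, 6.9 in the distal old low-fat, 7.28 in the distal young high-fat and 6.7 in the distal young low-fat array, and Mzb1 measured 5.87 there, 6.33 in the distal old low-fat, 6.43 in the distal young high-fat and 6.28 in the distal young low-fat array. The part of B cells and plasma cells in the low antibody values of this array was not tested.

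Further probe sets bear on how far these values can be read as single genes. V genes of a family, and constant genes of the heavy chain, are close in sequence, and a probe set may take up RNA of several. The second Igkv19-93 probe set also separated the pools (adjusted p = 0.0449 among all probe sets with a symbol) and correlated with the first (r = 0.888 over the 12 arrays, which share mice between segments). Over the pool means, however, it did not pass between ages (-0.93, adjusted p = 0.196), and with the sets averaged Igkv19-93 did not pass either (-1.13, adjusted p = 0.0663). Old minus young values of the second set were -1.23, -1.47 and -2.11 on high-fat diet and 0.50, -0.68 and -0.57 on low-fat diet in the proximal, middle and distal segment, so that the proximal low-fat pair differed in sign from the first set. The 3 Ighm probe sets were less alike (r from 0.678 to 0.885). Each was lower distally (-0.28 to -0.87), but distal old minus young on low-fat diet was -0.45, -1.83 and -0.30 in the 3 sets, and proximal high-fat minus low-fat in old mice was 0.56, -0.31 and 0.01. Whether the sets named Ighm and Igha measure only the constant gene, or also variable regions of the transcripts they are named after, was not tested. A further 16 probe sets listed several symbols with an immunoglobulin gene among them and all passed the intensity limit. Of these, 14 were lower distally than proximally (median -1.04) and none was higher, against 56.3% of all probe sets that passed in either direction. In old mice 9 of the 16 were lower in the distal segment (0.646% of all probe sets passed). At 2-fold, 9 were lower in the distal high-fat pair (0.682% of all probe sets passed in either direction). In the distal low-fat pair, which does not use the old high-fat array, 5 were lower (0.33%). In the middle segment 3 were higher and none lower in old mice on high-fat diet (0.323%), and 2 lower on low-fat diet (0.201%). Proximally none passed on high-fat diet (0.222%) and 2 were lower in old mice on low-fat diet (0.215%). Between ages over the pool means 11 were lower and 2 higher in old mice (1.93%). This count is given with all segments only, so that it includes the old high-fat array that stood apart. The median old minus young difference of the 16 sets was -0.938 distally, -0.38 proximally and -0.241 in the middle. Between diets over the pool means 4 were higher and 1 lower on high-fat diet (3.97%). In the middle segment 2 were higher on high-fat diet (2.1%), with a median of 0.447 over the 16 sets. None passed between diets proximally (0.316%) or distally (0.301%).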

How the data were processed

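Total RNA of mucosal and submucosal scrapings was pooled per group and hybridised by the authors to Affymetrix Mouse Gene 1.0 ST arrays, 1 array per pool and segment. The deposited log2 values were made by the authors with RMA (background correction, quantile normalization, a summary per probe set). Its version and the genome build are not given in the sources used here. Of 35556 probe sets, 21789 listed 1 symbol, 1621 several and 12146 none, taken from the platform annotation. The brightest probe set by its mean stood for a gene, a gene entered the fits when any array exceeded an intensity of 50, and 28 acinar genes of the pancreas were removed, since the authors removed pancreas-specific genes without listing them.

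limma 3.58.1 in R 4.3.3 (statmod 1.5.0 for random blocks) was fitted to all 11920 genes kept, with Benjamini-Hochberg adjusted p-values over all of them and a threshold of 0.05. Segment and pool were fitted together (6 residual degrees of freedom), age and diet within segments (3 residual degrees of freedom), and age and diet over pool means (1 residual degree of freedom). The p-values for pools and segments measure the spread between arrays of the same mice. Fits were tested on simulated data with independent noise on each array and no noise shared within pools. That noise was typically narrower than the spread of the members (median SD 0.413). The simulation therefore does not cover the members or the sharing of mice. The number of pools limits the precision. As in the study, array pairs were compared at 2-fold. Figures were drawn with Python 3.11.15 and matplotlib 3.10.9.

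The members, the gene lists and the tests were chosen with earlier results of these data known. All members are given by name, and of the other lists up to 4 genes that differed most in the contrast given, beside genes of a count of 5 or fewer. Mzb1 and Ms4a1 on the distal old high-fat array were named with their values in view. The alternatives were other intensity limits, averaging the probe sets of a gene, keeping the acinar genes, median centring, quantile normalization, an intensity trend with robust variance, the block for the pool, the arrays of a segment alone, each array or segment left out, and 1.5-fold. The fit of every probe set and the pool means without a segment were added after the data were seen. No sequence of a V gene is shown.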

Additional observations from a re-analysis of the deposited data

Results flagged for a closer look

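Some differences pointed in opposite directions in 2 groups, in every pair of arrays compared. Each pair is 1 array against 1 array. Only the antibody genes were searched for such opposite signs. The share of all genes with them was not counted, so that no background can be set beside these results. For Igkv6-20, high-fat minus low-fat lay between -1.03 and -0.03 in the 3 segments of old mice and between 0.30 and 0.77 in those of young mice, a difference between the means of -1.05 (adjusted p = 0.999 for age by diet in the fit of segment and pool).

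The other differences were not tested between segments. High-fat minus low-fat was below 0 in both ages in the distal segment and above 0 in both ages in the middle segment for Igha (difference between the means -1.48), Igkv9-120 (-0.84), Jchain (-0.58) and Igkv4-55 (-0.59). Some of these signs rest on values close to 0, with distal values of -0.09 and -0.01 for Igkv4-55 and -0.08 for Igkv9-120 in young mice. The distal values of old mice rest on the old high-fat array, which stood apart, and no other old high-fat array covers this segment. For Igkv4-55 it was also above 0 in the middle and below 0 in the proximal segment (1.01). Old minus young was above 0 on both diets in the middle and below 0 on both in the proximal segment for Igkv8-30 (0.45), with proximal values of only -0.13 and -0.02. No group held enough arrays for a check of single arrays against their group.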

How the results depend on the processing

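No member changed direction in a called difference between distal and proximal, between ages distally or over the pool means, or between diets in the middle segment or over the pool means, under the alternatives run for these. Of 266 recounts of members called by limma, 192 stayed within 1.5 times the main count, as did 78 of 84 recounts at 2-fold. Part of this agreement was fixed in advance. A recount of 0 beside a main count of 0 was taken as the same. At 2-fold, keeping the acinar genes or moving the intensity limit leaves the array differences of each member unchanged. These totals therefore do not measure how firm the calls are. The count between distal and proximal (9) stayed between 7 and 11 throughout. With each array left out in turn, the counts ran from 0 to 4 between pools, 1 to 7 between middle and proximal, 1 to 7 between distal and middle, 0 to 1 for old minus young in the middle, 0 to 2 for old minus young distally, 0 to 1 for high-fat minus low-fat in the middle and 0 to 1 distally. Between pools, 2 passed with median centring or without the distal segment and 0 without the proximal or the middle segment. Between middle and proximal, 1 passed with no block or a random block for the pool, and between distal and middle 1 with no block, 3 with a random block and 2 with an intensity trend and robust variance.

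With the arrays of the segment alone, 1 passed for old minus young in the middle, 2 distally, 3 for high-fat minus low-fat in the middle and 1 distally. For old minus young distally, 2 also passed with the limit at 100, probe sets averaged per gene, median centring, quantile normalization, and the trend with robust variance (Jchain, adjusted p from 0.0119 to 0.0488). For high-fat minus low-fat in the middle, 0 passed without an intensity limit and 2 with the trend. The pool means gave 1 for age without an intensity limit, and 2 with the trend or without the distal segment. For diet they gave 0 without a limit, with median centring, with quantile normalization and with every probe set as a row, and 2 without the distal segment. With the trend the count stayed at 1, but Pigr (adjusted p = 0.0221) passed and Igkv10-96 did not (0.48). Over 1.5-fold in place of 2-fold, 5 and 8 members differed between ages on high-fat diet in the middle and distal segment, 4 and 7 between diets in old mice in the middle and distal segment, and 6 and 7 in young mice in the proximal and middle segment. The causes were not tested. A random block for the pool gave a correlation of -0.0803 in the fit of age and 0.139 in that of segments. Ighg3, Igkv8-30, Igkv4-91 and, in the distal old arrays, Igkv4-55 had values under an intensity of 50, which limits their differences.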
